A study of Mus musculus with 24 samples.

Results

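The 9 genes described here act in the zona glomerulosa, the outer layer of the adrenal cortex that makes aldosterone, or in the angiotensin system that controls it: Cyp11b2, Hsd3b6, Agtr1a, Agtr1b, Agt, Ren1, Cacna1h, Vsnl1 and Dab2. All probe sets (groups of short array probes read as 1 signal) annotated to them were taken: 13 of the 45037 that were not controls, for 8 of the 19324 genes named on the array. Dab2 had 4, Vsnl1 and Cacna1h had 2 each, and Cyp11b2, Agtr1a, Agtr1b and Agt had 1 each. Another was shared by Hsd3b6, Hsd3b3 and Hsd3b2 and could not be assigned to Hsd3b6 alone. No probe set was listed for Ren1, so its level was not analysed here, and 7 of the 9 genes had a probe set of their own. Whole adrenals of wild-type male C57B/6J mice aged 3 months were profiled on 24 arrays, with 2 arrays at each of 12 times, 4 h apart, between 38 and 82 h after lights off. The mice had been held for 2 weeks in 12 h of light and 12 h of darkness and then stayed in constant darkness, with no drug or genetic change. Time is given as projected circadian time (CT), the hours in the label minus 12, modulo 24, which yields 6 times, CT2, CT6, CT10, CT14, CT18 and CT22. The series asked which adrenal transcripts follow the circadian clock.

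Aldosterone is the steroid that makes the kidney retain sodium. Renin cuts angiotensinogen, further enzymes yield angiotensin II, and this peptide binds AT1 receptors on glomerulosa cells, raising calcium through Gq signalling and voltage-gated channels. Calcium then raises Cyp11b2, the gene of aldosterone synthase, which carries out the last steps of the pathway.

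Before any test the arrays were compared. In 6 pairs of arrays the larger value exceeded the smaller by at most 5.263% for each probe set whose signals reached 50 or more. This bound was the same in all 6 pairs. The SD of their log2 ratios was at most 0.0418, against at least 0.217 between other arrays of the same CT. In 5 of these pairs the arrays carried labels 24 h apart. Each such pair was merged into a single profile, and 18 profiles remained, 3 per CT. CT10 and CT18 alone formed a second array batch, seen in a control probe set, and the other 4 times formed the first, with 12 profiles. The profile of 78 h replicate 2 (CT18) had a Gapdh 5' to 3' signal ratio of 0.0386, against 0.846 to 1.13 in the others. Its summed signal of liver markers was 17037, against 1094 to 7172 in the others. The muscle gene Acta1 exceeded a signal of 1000 in 4 profiles, all of CT10 or CT18, and lay between 14 and 192 elsewhere. All 6 glomerulosa markers on the array were above the filter for low signal, and their summed signal was 16789 to 20430 in the first batch, 20048 to 20996 at CT10 and 14479 to 22022 at CT18. Of these 6, Cyp11b2, Agtr1b, Dab2 and Vsnl1 are among the genes described, so the sum is no separate measure of glomerulosa content. These are whole glands, so fewer glomerulosa cells, less RNA per cell and signal from other cell types cannot be told apart. Macrophage markers summed to 5779 to 8447 in the first batch, 8243 to 9157 at CT10 and 8439 to 9779 at CT18. In the same order, capsule and stroma markers gave 4495 to 6512, 6573 to 7298 and 5442 to 6117. Inner cortex markers gave 28956 to 34561, 27019 to 27877 and 27817 to 30366, and medulla markers 33777 to 42819, 33453 to 36256 and 33385 to 41113. The part of these cells in the signals was not tested. Separate animals are not named in the labels, so the p-values reflect the spread of these samples alone, which may be technical.

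Cacna1h and Vsnl1, both tied to calcium in glomerulosa cells, had a 24 h rhythm, and none was detected for Cyp11b2. By mean, Cacna1h was highest at CT2 and lowest at CT10. The fitted peaks of the Vsnl1 probe sets lay in the projected night, at CT16 (1420955_at) and CT18.5 (1450055_at). However, 1420955_at had a log2 mean of 11.32 at both CT10 and CT18. One of the 4 Dab2 probe sets also passed the test. In all, 4 of 12 tested probe sets passed limma's moderated F test on a 24 h cosine (Benjamini-Hochberg adjusted p under 0.05), beside 10.2% of all 27022 probe sets tested. With the array batch as a block 3 of 12 passed, beside 16.0%, and within the first batch alone 4 of 12 passed, beside 10.1%. In the 18 fits that each left out 1 profile, the call of Vsnl1 1420955_at held in 14. For Cyp11b2 the lowest adjusted p among these fits was 0.0816 (limma). Passing or missing the threshold is thus no test of a difference between these genes. The median amplitude, meaning the rise of the fitted peak over the fitted mean on the log2 scale, was 0.2 over the 12 and 0.12 over all tested probe sets. The thirteenth, Cacna1h 1427607_at, was too dim to judge. Its mean signal of 171 lay under the filter at 183, which is the 40th percentile of all probe sets. The dimmest that were tested were Dab2 1429693_at, at a mean signal of 271, and Agt, at 322.

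**Figure D1:**
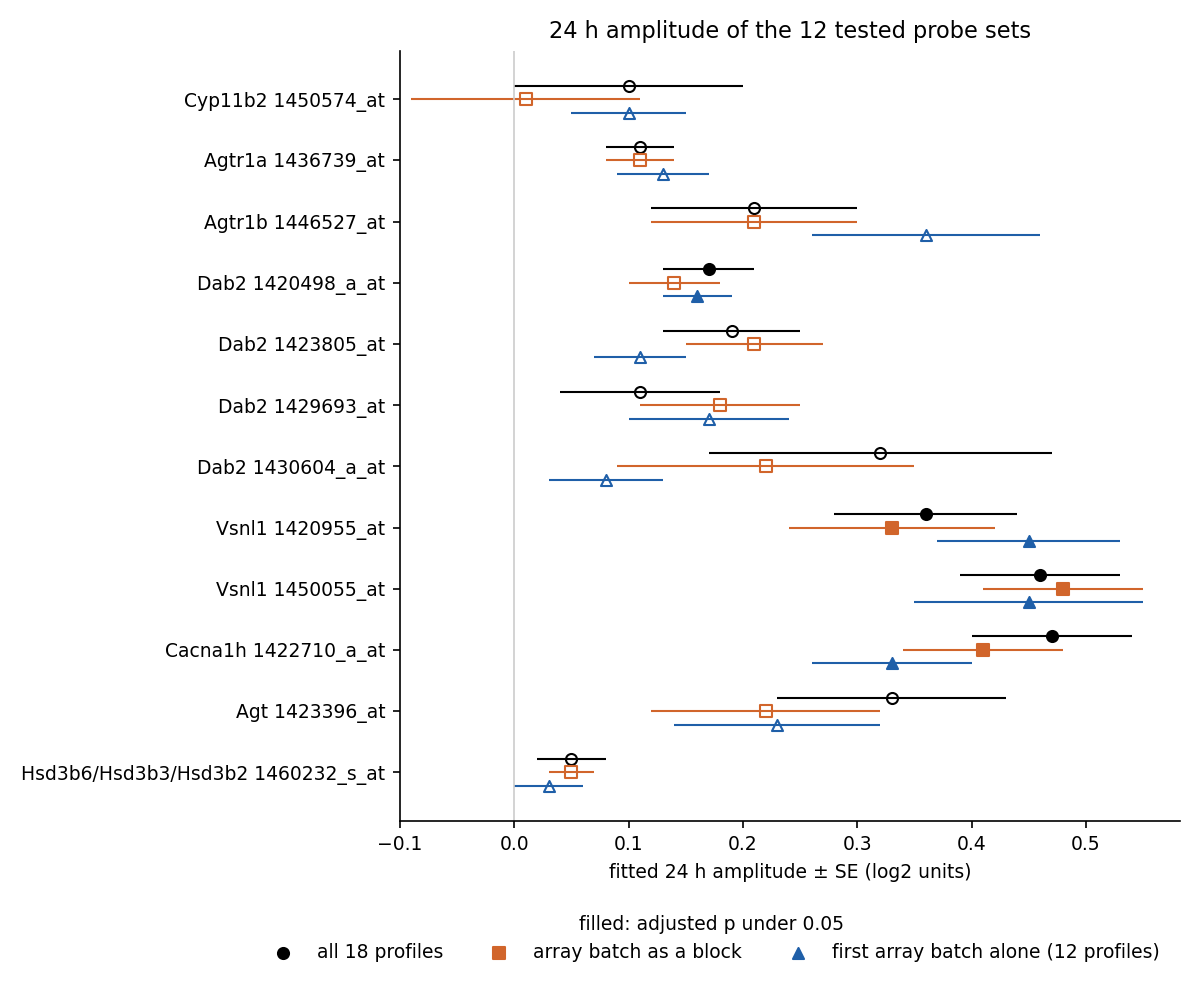
Fitted 24 h amplitude (log2 units, x axis) ± SE of the 12 tested probe sets (y axis) in 3 fits: all 18 profiles, all with the array batch as a block, and the 12 profiles of the first batch. Filled symbols have an adjusted p under 0.05. Vsnl1 and Cacna1h are filled in all 3 fits, and Dab2 1420498_a_at is open with the block.

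Cacna1h encodes the T-type calcium channel Cav3.2, which opens at small depolarisations and lets calcium into glomerulosa cells. Signals of probe set 1422710_a_at were 2247, 2376 and 2169 at CT2, 1983, 1541 and 1549 at CT6, and 1003, 1031 and 991 at CT10. They were 1795, 1174 and 1397 at CT14, 1466, 1912 and 1796 at CT18, and 1735, 2039 and 2314 at CT22. Every CT10 profile lay below every other profile, and the CT2 profiles overlapped with those of CT22 alone. From highest to lowest the order was CT2, CT22, CT18, CT6, CT14 and CT10, and only CT14 and CT10 of the neighbours in this order did not overlap. The log2 mean fell from 11.18 ± 0.06 (SD, n = 3) at CT2 to 10.05 ± 0.03 at CT10, a 2.19-fold difference. The rhythm had an amplitude of 0.47 ± 0.07 (SE) and a fitted peak at CT23.5 (limma, adjusted p = 0.0022). With the batch as a block the amplitude was 0.41 ± 0.07 (adjusted p = 0.00272). Within the first batch, which leaves out CT10 and CT18, it was 0.33 ± 0.07 with a peak at CT0.2 (adjusted p = 0.0311). Within the second batch CT18 exceeded CT10 by 0.74 ± 0.14 on the log2 scale (adjusted p = 0.00145). The dim probe set 1427607_at gave signals of 80 to 97 at CT10 and 243 to 269 at CT2, so that it too was lowest at CT10 in every profile. This is a description of values under the filter.

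Vsnl1 encodes visinin-like protein 1, a calcium sensor enriched in glomerulosa cells that is known to raise Cyp11b2. Probe set 1450055_at gave signals of 692, 894 and 1050 at CT2, 605, 826 and 732 at CT6, and 700, 702 and 807 at CT10. It gave 1245, 1176 and 1171 at CT14, 1272, 1475 and 1172 at CT18, and 1581, 926 and 1095 at CT22. The CT14 and CT18 profiles all lay above those of CT2, CT6 and CT10. Its amplitude was 0.46 ± 0.07 with a peak at CT18.5, a peak-to-trough ratio of 1.88 (limma, adjusted p = 0.00169). The block left 0.48 ± 0.07 (adjusted p = 0.000518), and the first batch alone gave 0.45 ± 0.10 (adjusted p = 0.0233). CT18 exceeded CT10 by 0.78 ± 0.17 (adjusted p = 0.00345).

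The other Vsnl1 probe set, 1420955_at, gave signals of 1449, 1795 and 2145 at CT2, 1235, 1574 and 1669 at CT6, and 2516, 2371 and 2660 at CT10. It gave 2699, 2324 and 2673 at CT14, 2252, 3429 and 2017 at CT18, and 2800, 1962 and 2256 at CT22. All CT6 profiles lay below all profiles from CT10 to CT22. For this probe set CT18 minus CT10 was -0.01 ± 0.18 (limma, adjusted p = 0.983). Its amplitude was 0.36 ± 0.08 with a peak at CT16 (limma, adjusted p = 0.0278), 0.33 ± 0.09 with the block (adjusted p = 0.0483) and 0.45 ± 0.08 within the first batch (adjusted p = 0.00963). The call was lost without 38 h replicate 1 (adjusted p = 0.0626), 42 h replicate 1 (0.0522), 66 h replicate 2 (0.0514) or 54 h replicate 2 (0.052), and with means per time point (0.0631) or the replicate and batch blocks together (0.0552). The fit with the batch block and no filter on dim probe sets also lost this call (limma, adjusted p = 0.0649). The Vsnl1 probe sets parted at CT10, where 1450055_at was low and 1420955_at was high. Within a profile, 1420955_at minus 1450055_at on the log2 scale was 1.66 to 1.77 at CT10, 0.8 to 1.16 in the first batch and 0.76 to 1.19 at CT18. The CT10 values did not overlap with any others. Within the first batch, which holds no CT10 or CT18 profile, the amplitudes of both probe sets were 0.45. Their fitted peaks there, CT17.5 and CT18, lie between the sampled times CT14 and CT22, so no profile was measured near them.

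The 250 bases before each RefSeq start of Vsnl1, both of whose probe sets passed in all 3 fits, are shown 5′ to 3′ on the gene's strand, with GRCm38.p6 coordinates. They are in lower case throughout because no searched motif matched, and capitals would have marked a match.
Vsnl1 chr12:11435652-11435901 (minus strand): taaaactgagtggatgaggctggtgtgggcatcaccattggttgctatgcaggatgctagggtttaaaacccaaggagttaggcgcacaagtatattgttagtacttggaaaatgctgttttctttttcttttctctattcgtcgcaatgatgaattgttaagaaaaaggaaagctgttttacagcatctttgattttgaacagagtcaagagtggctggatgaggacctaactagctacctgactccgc
Vsnl1 chr12:11436579-11436828 (minus strand): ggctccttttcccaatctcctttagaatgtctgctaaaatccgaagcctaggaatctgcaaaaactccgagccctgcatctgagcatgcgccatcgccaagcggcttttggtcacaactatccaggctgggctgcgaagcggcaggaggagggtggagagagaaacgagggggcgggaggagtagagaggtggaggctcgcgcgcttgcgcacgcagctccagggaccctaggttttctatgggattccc
Of the 9 genes, 6 had promoter entries, 8 in all, and windows from 250 bases before to 50 after the start were searched on both strands. Cyp11b2, Agtr1a and Cacna1h had no entry and were not searched. The letters searched were CACGTG (the E-box, in 7.15% of 32851 mouse promoters), TTATGTAA or TTACGTAA (the D-box, 1.06%), TGACGTCA (the cAMP response element, 1.79%), CAAGGTCA (the SF-1 site, 1.56%), AAAGGTCA (the NBRE bound by Nr4a factors, 1.51%) and AGGTCA (the ROR half-site, 16.3%). The SF-1 and NBRE letters contain the ROR half-site. None of these occurred in the 8 windows. TATAAA, found in 13.6% of promoters, occurred in the windows of Agt, Agtr1b and Ren1.

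Dab2 encodes an adaptor protein of endocytosis and is a marker of the zona glomerulosa. Its probe set 1420498_a_at gave signals of 3910, 4156 and 3960 at CT2, 3974, 4110 and 3743 at CT6, and 4984, 5168 and 5065 at CT10. It gave 4937, 4630 and 4946 at CT14, 4458, 5267 and 4486 at CT18, and 4875, 3967 and 4412 at CT22. The profiles of CT10, CT14 and CT18 all lay above those of CT2 and CT6. The amplitude was 0.17 ± 0.04 with a peak at CT14.4 (limma, adjusted p = 0.0186), and 0.16 ± 0.03 within the first batch (adjusted p = 0.0157). With the block it was 0.14 ± 0.04 and missed the threshold (adjusted p = 0.0527), which it passed without 78 h replicate 2 (0.14, adjusted p = 0.0329).

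The second Dab2 probe set, 1423805_at, did not pass the rhythm test (amplitude 0.19 ± 0.06, limma adjusted p = 0.128) but differed between the 6 times (adjusted p = 0.00212). Its signals were 3711, 3959 and 3781 at CT10 and 2407, 2895 and 2161 at CT18, and 2778 to 3952 at the other times. The CT18 profiles were the lowest but for 54 h replicate 2, which overlapped with CT2 and CT22. CT18 lay below CT10 by 0.62 on the log2 scale, a difference of -0.62 ± 0.10 (adjusted p = 0.000544). For 1420498_a_at the same difference was -0.10 ± 0.07 (adjusted p = 0.357). Within a profile 1420498_a_at minus 1423805_at was 0.85 to 1.04 at CT18, 0.38 to 0.42 at CT10 and 0.2 to 0.51 in the first batch, so that CT18 stood apart.

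Dab2 1430604_a_at gave 1003, 1045 and 1084 at CT10 and 427 to 609 in the first batch, with no overlap. At CT18 it gave 837, 1043 and 242, and 242 was the profile with the low Gapdh ratio. No rhythm was detected (amplitude 0.32 ± 0.15, limma adjusted p = 0.276), and within the first batch the amplitude was 0.08 ± 0.05 (adjusted p = 0.622). Its CT18 minus CT10 difference of -0.73 ± 0.31 (adjusted p = 0.109) became -1.10 (adjusted p = 0.0107) without 54 h replicate 2 and -0.15 (adjusted p = 0.442) without 78 h replicate 2. Dab2 1429693_at ranged from 195 to 402 over all profiles with no rhythm detected (adjusted p = 0.483).

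**Figure D2:**
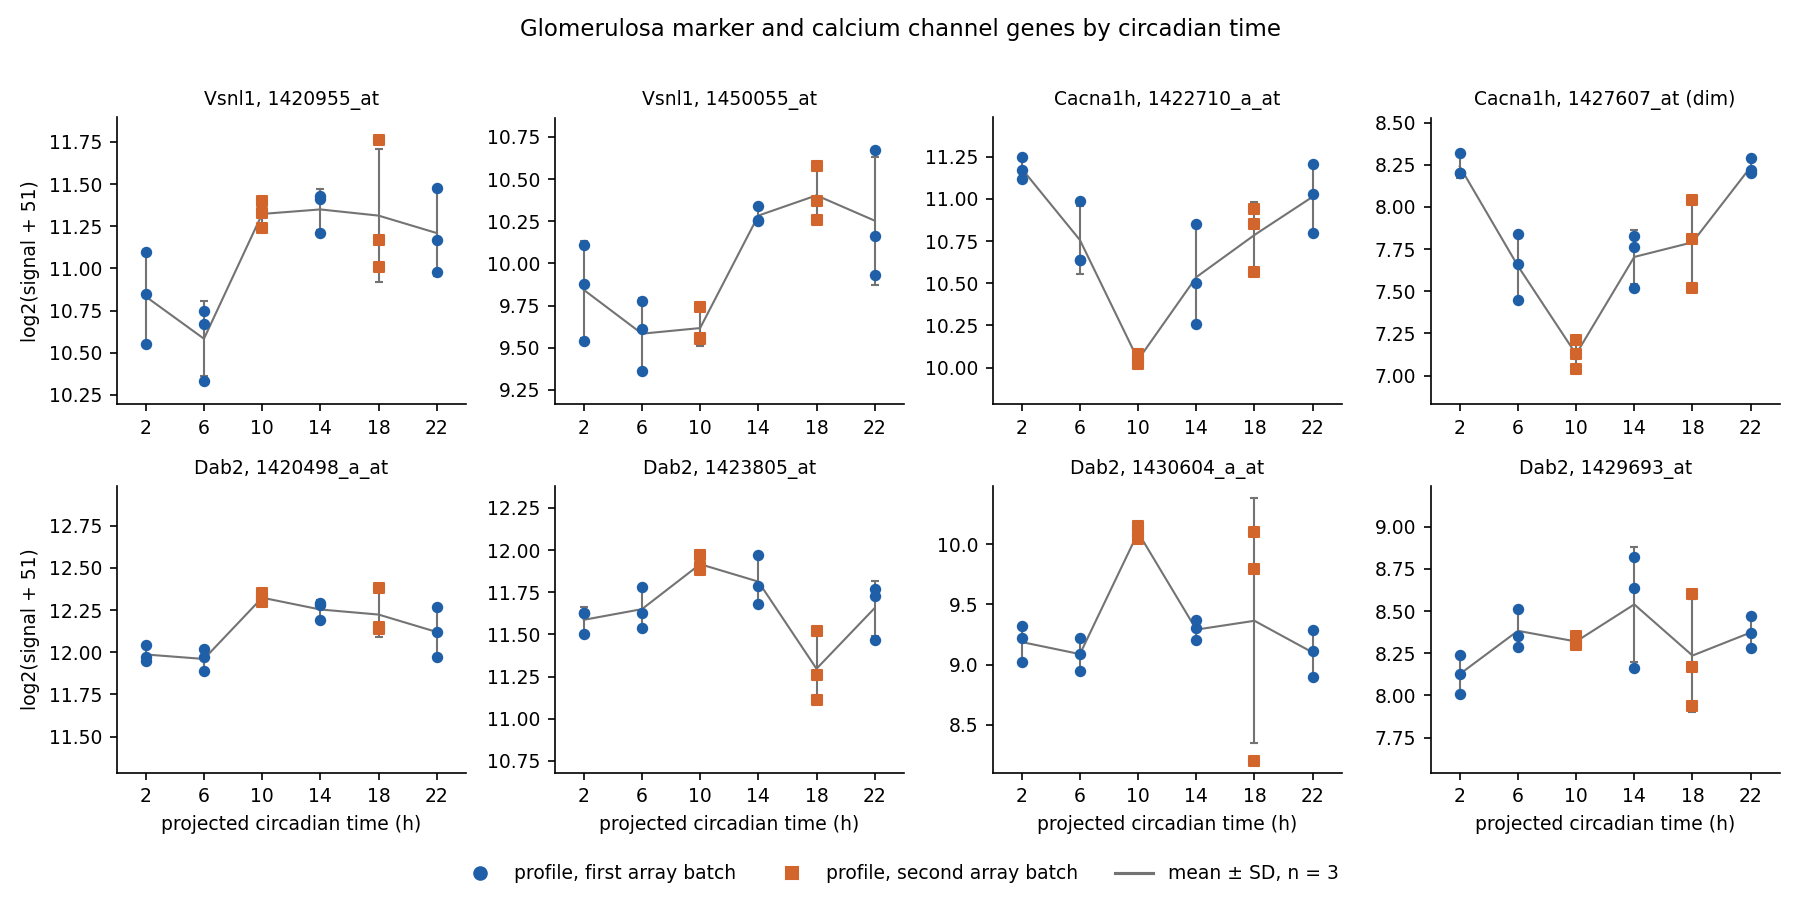
log2(signal + 51) of the Vsnl1, Cacna1h and Dab2 probe sets (y axis, 1 panel each with its own range) at projected circadian times in h (x axis). Points are profiles, blue circles of the first and orange squares of the second array batch, and lines join means ± SD (n = 3). Cacna1h is lowest at CT10 in both panels, and the panels of Vsnl1 and of Dab2 differ at CT10 or CT18.

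**Figure D3:**
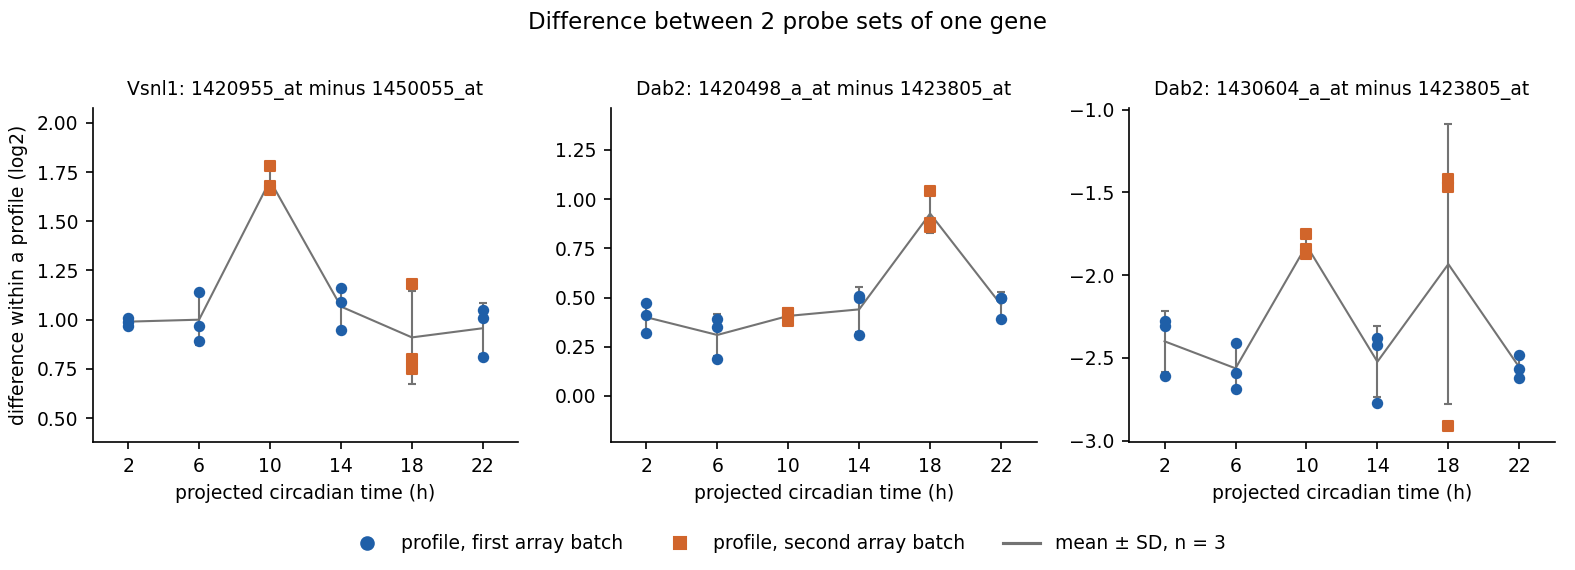
Difference on the log2 scale between probe sets of one gene within each profile (y axis) at projected circadian times in h (x axis), with means ± SD (n = 3). Blue circles are the first and orange squares the second array batch. For Vsnl1 the CT10 profiles stand apart at 1.66 to 1.77, and for Dab2 1420498_a_at minus 1423805_at the CT18 profiles do, at 0.85 to 1.04.

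Over the 6 times as free levels, 7 of 12 probe sets differed (limma, adjusted p under 0.05), beside 52.9% of all. This test cannot hold a batch term. Between CT18 and CT10, which share a batch, 3 of 12 differed, beside 21.7%: Cacna1h, Vsnl1 1450055_at and Dab2 1423805_at. Without the 4 profiles with Acta1 over 1000, which leaves 1 profile at each of these times, 0 of 12 passed (limma), beside 1451 of 27022, and 4 had an unadjusted p under 0.05. The differences were 0.91, 0.83 and -0.38 in that order. The lone profile is there assumed to vary like the other groups. Without the same 4 profiles and with the block, the rhythms of Cacna1h, both Vsnl1 probe sets and Dab2 1420498_a_at passed, with amplitudes of 0.38, 0.42 (1420955_at), 0.47 (1450055_at) and 0.16.

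Cyp11b2 was bright throughout and no 24 h rhythm was detected. Its signals were 5393, 6013 and 5294 at CT2, 5760, 5444 and 5330 at CT6, and 4825, 5080 and 5268 at CT10. They were 5443, 5559 and 5863 at CT14, 5450, 6430 and 2438 at CT18, and 7076, 5556 and 6154 at CT22. The value of 2438 came from 78 h replicate 2, and the other 17 profiles lay between 4825 and 7076. That profile had the low Gapdh ratio, the highest liver marker sum and an Acta1 signal of 1760. Which of these goes with the low value was not tested. CT22 had the highest mean, at 12.62 ± 0.17 (SD, n = 3). The amplitude was 0.10 ± 0.10 (limma, adjusted p = 0.723), with an approximate upper 95% limit of 0.30. The fitted amplitudes of Vsnl1 and Cacna1h over all profiles, 0.36 to 0.47, lay above it. The limit leaves out their SE and the uncertainty of the Cyp11b2 peak (CT2.2 ± 3.8 h), so it is only a rough guide. With the block the amplitude was 0.01 ± 0.10 (adjusted p = 0.997). Without 78 h replicate 2 it was 0.12 with a peak at CT20.8 (adjusted p = 0.0816), and 0.11 with the block too (adjusted p = 0.0705). CT18 minus CT10 was -0.19 ± 0.23 (adjusted p = 0.594) and turned to 0.23 (adjusted p = 0.0908) without that profile. Cyp11b1, the related enzyme of corticosterone synthesis, had an amplitude of 0.02 ± 0.02 (adjusted p = 0.683), with signals of 10221 to 11362, which are also near the top of the arrays' range, so nothing is read from it.

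Hsd3b6 encodes a 3-beta-hydroxysteroid dehydrogenase found in mouse glomerulosa cells. The probe set it shares with Hsd3b3 and Hsd3b2 gave 5759, 6018 and 5777 at CT10, where all profiles exceeded all others, which lay between 4982 and 5665. The times differed (limma, adjusted p = 0.0243), but no 24 h rhythm was detected, with an amplitude of 0.05 ± 0.03 (adjusted p = 0.33) and an approximate upper 95% limit of 0.10. CT18 minus CT10 was -0.10 ± 0.05 (adjusted p = 0.122), and -0.17 after quantile normalization (adjusted p = 0.0093). Which of the 3 genes gave this signal cannot be told apart. Hsd3b1, the main adrenal form, had signals of 12282 to 13443, close to the arrays' highest signals of 13026 to 14316, so nothing is read from its amplitude of 0.03 ± 0.01.

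Mice have a pair of AT1 receptor genes, and Agtr1b is the form tied to the glomerulosa. Agtr1b signals were 595, 643 and 796 at CT2, 613, 580 and 451 at CT6, and 681, 576 and 808 at CT10. They were 894, 560 and 679 at CT14, 585, 922 and 704 at CT18, and 1141, 729 and 787 at CT22. CT6 was lowest and CT22 highest by mean, and those profiles did not overlap, while all neighbours in the order of times did. The amplitude was 0.21 ± 0.09 (limma, adjusted p = 0.22). In the first batch, which holds no CT18 profile, it was 0.36 ± 0.10 with a fitted peak at CT19.8 (limma, adjusted p = 0.0904).

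Agtr1a varied less, from 4388 to 6235. Its signals were 4634, 4787 and 4759 at CT2, the time of the lowest mean. They were 5277, 6235 and 5220 at CT18 and 5549, 5178 and 5941 at CT22. CT18 and CT22 shared the highest log2 mean, 12.45, and neither overlapped with CT2. The amplitude of 0.11 ± 0.03 with a peak at CT17.3 did not pass (limma, adjusted p = 0.0672). It passed without 66 h replicate 1 and its near-copy 42 h replicate 2 (adjusted p = 0.0441) or without 74 h replicate 1 (0.0485), and with the block but without 78 h replicate 2 (0.0419).

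Agt encodes angiotensinogen, made mainly in liver and also in fat. Its signals were 294, 248 and 283 at CT2, 211, 255 and 246 at CT6, and 408, 575 and 322 at CT10. They were 260, 519 and 342 at CT14, 490, 348 and 421 at CT18, and 229, 322 and 251 at CT22. All CT10 and CT18 profiles were at least as high as every CT2, CT6 and CT22 profile, and CT14 spread over both ranges. The times differed (limma, adjusted p = 0.0189), but the 24 h amplitude of 0.33 ± 0.10 did not pass (adjusted p = 0.0745), nor did 0.22 ± 0.10 with the block (adjusted p = 0.263). The amplitude passed, at 0.41, without 50 h replicate 1 and its near-copy 74 h replicate 2 (adjusted p = 0.0192). The batch of CT10 and CT18 was higher by 0.5 on the log2 scale. Of the fat markers, 4 of 4 on the array were above the filter, with a summed signal of 9936 to 23986 in the first batch, 17819 to 21054 at CT10 and 13390 to 25665 at CT18. Of the liver markers, 3 of 5 were, at 1094 to 2731, 1751 to 2190 and 2159 to 17037. The 2 highest Agt profiles, 575 and 519, had fat sums of 21054 and 23986 and liver sums of 2190 and 1856. The next highest, 490 and 421, had fat sums of 22316 and 25665 and the 2 highest liver sums, 7172 and 17037. A profile with a fat sum of 23703 had an Agt signal of 255, and one with a liver sum of 2731 had 246. The part of fat or liver in the Agt signal was not tested.

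**Figure D4:**
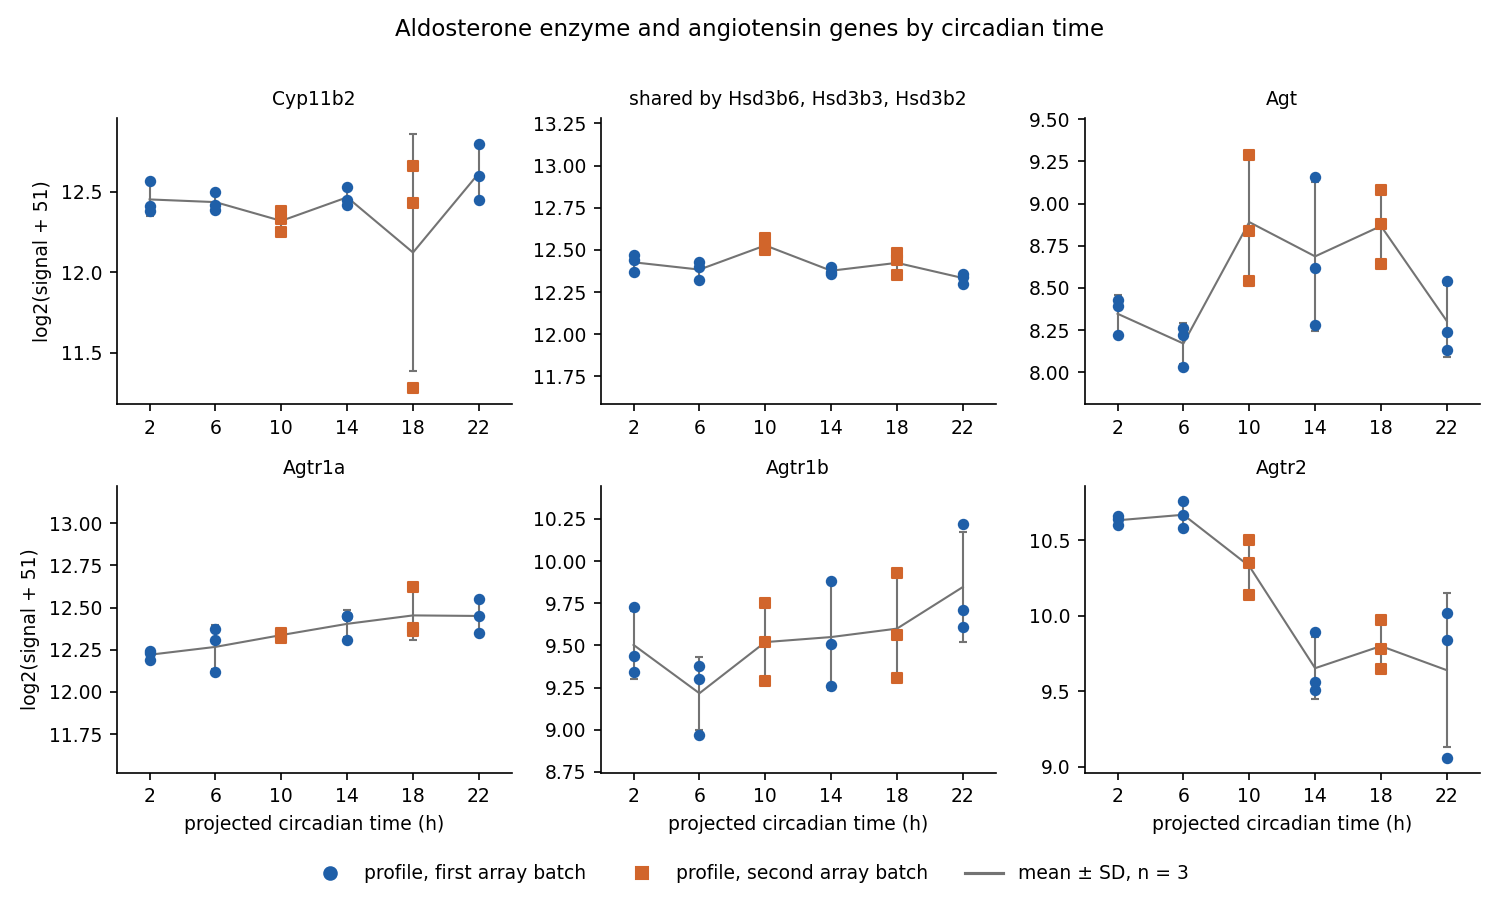
log2(signal + 51) of Cyp11b2, the shared Hsd3b probe set, Agt, Agtr1a, Agtr1b and Agtr2 (y axis, each panel with its own range) at projected circadian times in h (x axis). Points are profiles, blue circles of the first and orange squares of the second array batch, and lines join means ± SD (n = 3). A single CT18 profile of Cyp11b2 lies far below the others, and Agtr2 is lower from CT14 on than from CT2 to CT10.

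From the first to the second cycle in darkness, tested on the 13 profiles that belong to 1 cycle, 0 of 12 probe sets and 0% of all changed (limma, adjusted p under 0.05). At an unadjusted p under 0.05 there were 4 of 12 and 2178 of 27022. These 4 were Agtr1b (-0.31 ± 0.09, second minus first), Dab2 1423805_at (-0.15 ± 0.06), Agtr1a (-0.11 ± 0.04) and Agt (0.31 ± 0.11), each with an adjusted p of 0.609 or 0.611.

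Among the other enzymes and receptors of the angiotensin system, 1 of 12 tested genes was rhythmic, beside 11.3% of 13880 genes, and also 1 with the block, beside 16.7%. This was Agtr2, the AT2 receptor, which often opposes AT1 signalling. Its signals were 1540, 1567 and 1499 at CT2, 1683, 1482 and 1582 at CT6, and 1400, 1081 and 1252 at CT10. They were 706, 679 and 898 at CT14, 755, 949 and 827 at CT18, and 483, 868 and 986 at CT22. All profiles from CT2 to CT10 lay above all later ones. The amplitude was 0.57 ± 0.09 with a peak at CT5.4 (limma, adjusted p = 0.00217). The block gave 0.63 ± 0.09 (adjusted p = 0.000523), and the first batch alone 0.74 ± 0.11 (adjusted p = 0.00343).

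Of the Gq, calcium and protein kinase C genes, 2 of 21 were rhythmic (all genes 11.3%), 4 under the block (16.7%) and 0 in the first batch alone (11.2%), where 4 had an unadjusted p under 0.05. The shares under the first fit and the block are near those over all genes. Nr4a1, a nuclear receptor induced by angiotensin II, had an amplitude of 0.68 ± 0.15 with a peak at CT9.4 (limma, adjusted p = 0.0214), and 0.58 in the first batch alone (adjusted p = 0.258). The CT18 profiles gave 3549, 3821 and 2855 against 7706, 7892 and 8946 at CT10, a difference of -1.26 ± 0.38 (adjusted p = 0.0245). Prkce, a protein kinase C, had an amplitude of 0.27 ± 0.06 with a peak at CT10.3 (adjusted p = 0.0137), and 0.25 in the first batch alone (adjusted p = 0.112). Its other tested probe sets passed over all profiles too. Gnaq, the Gq subunit that couples AT1 receptors, passed with the block (0.14 ± 0.04, adjusted p = 0.0461) but not without it, where the amplitude was larger (0.29 ± 0.09, adjusted p = 0.0855). With the block none of its other tested probe sets passed. The kinase Prkcd also passed with the block (0.19 ± 0.04, adjusted p = 0.0167) and not without it (0.20 ± 0.06, adjusted p = 0.0803).

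Of the channels and pumps that set the excitability of glomerulosa cells, 2 of 12 were rhythmic (all genes 11.3%), 3 under the block (16.7%) and 2 in the first batch alone (11.2%). Clcn2 encodes a chloride channel whose activating variants cause inherited aldosteronism. Its signals were 330, 431 and 324 at CT6 and 152, 135 and 49 at CT18, and its amplitude was 0.54 ± 0.11 with a peak at CT7 (limma, adjusted p = 0.0132). The CT18 signals all lay under the filter signal of 183, so the size of their difference from other times is not given, and the value of 49 was from 78 h replicate 2. Within the first batch, which holds no CT18 profile, the amplitude was 0.44 (adjusted p = 0.00427). The CT22 signals in that batch were 161, 179 and 237, and 161 and 179 also lay under the filter signal. Atp2b3, a calcium pump altered in some aldosterone-producing tumours, had an amplitude of 0.18 ± 0.05 (adjusted p = 0.0477) and 0.16 within the first batch, where it did not pass (adjusted p = 0.258). Its other tested probe set did not pass (0.58 ± 0.20, adjusted p = 0.138), and its amplitude was 0.15 with the block. Cacna1c, an L-type calcium channel, passed with the block alone of the fits over all profiles (0.24 ± 0.06, peak CT12, adjusted p = 0.0253). Within the first batch it passed too (0.22 ± 0.05, limma adjusted p = 0.0317). The other tested probe set of Cacna1c passed without the block as well (0.20 ± 0.05, adjusted p = 0.0454).

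The genes whose batch-centred log2 values were most like those of Vsnl1 1450055_at over the 18 profiles were Fdps (Pearson r = 0.90), Cyp51 (0.88) and Fbl (0.87). Fdps and Cyp51 encode enzymes of the isoprenoid and cholesterol pathways and Fbl the nucleolar protein fibrillarin. These values share arrays and batches and are given as a description.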

How the data were processed

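Whole adrenal RNA was hybridised to 24 Affymetrix arrays, and the values used are the intensity values that the authors deposited for each probe set, on a linear scale. Their summarisation and scaling are not given in the sources used here. All 24 columns matched a sample. The scale used is log2(intensity + 51), and 51 is the 10th percentile of the values. The offset makes changes of dim probe sets look smaller. The arrays hold 45101 probe sets, 64 of them controls. Probe sets under the 40th percentile of mean signal were left out. Arrays whose values were near-copies were averaged on the log2 scale, and the tolerance was set after the data were seen. Batches came from the control ThrX-3 (a threshold signal of 300).

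Tests ran in R 4.3.3, with version 1.17.8 of data.table, and used limma 3.58.1 with lmFit and eBayes with trend over all tested probe sets and Benjamini-Hochberg adjustment, threshold 0.05. The code was tested on simulated data. Arrays have no read depth, and their number limits the precision. Levels were not compared between probe sets of different genes. The 9 genes, the 3 lists of related genes, the 11 marker lists and the tests were chosen with earlier results of these data known. Named are all probe sets of the 9 genes, Cyp11b1 and Hsd3b1 as relatives, up to 4 genes past the threshold from each list (with or without the block), each by its brightest probe set, and the 3 genes most alike to the member of lowest p. Alternatives were the offset, the filter, quantile normalization, 24 columns as independent, time point means, batch and replicate blocks, and leaving out each profile. Promoter sequences are from RefSeq (GRCm38.p6).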

Additional observations from a re-analysis of the deposited data

How the results depend on the processing

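No clear pairing of samples by the replicate letters in the labels was seen. Deviations from the time means correlated at a mean r of 0.04 (-0.34 to 0.48) over 46 pairs of the same letter. Over 47 pairs of different letters the mean r was -0.03 (-0.37 to 0.19). These pairs share profiles, so the values cannot exclude a pairing. With the replicate block the count of rhythmic probe sets stayed at 4, and those for the difference between times, CT18 against CT10 and the cycles at 7, 3 and 0. With the replicate and array batch blocks together 2 of 12 were rhythmic, beside 4325 of 27022. Treating all 24 columns as independent gave 7 rhythmic probe sets, beside 7403 of 27022 over all, and 5 that differed between CT18 and CT10, beside 9829. It gave 3, 7 and 4 rhythmic genes in the angiotensin, Gq and channel lists. The Gq list had 4 under the array batch block and 0 in the first batch alone. The angiotensin list had 2 after quantile normalization, and the channel list 1 with no filter. Without the profiles with Acta1 over 1000, 0 differed between CT18 and CT10. Leaving out each profile in turn gave 3 to 5 rhythmic probe sets, 6 to 9 that differed between times, 3 to 4 between CT18 and CT10 and 0 between cycles. Without 78 h replicate 2 the lists had 1, 3 and 2. Leaving out the Acta1 profiles for the comparisons of times, and 78 h replicate 2 together with the block, was chosen after seeing the data. No result reversed among those that passed the threshold. The calls of Cacna1h 1422710_a_at, Vsnl1 1450055_at and Dab2 1420498_a_at held without each profile in turn, and that of Vsnl1 1420955_at in 14 of 18. The cause of these changes was not tested. With 3 profiles per time, and CT10 and CT18 in a batch of their own, the batch and any difference of those times from the others cannot be told apart.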
